A study of Bos taurus with 8 samples.

Results

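CEBPD, BCL3 and SBNO2 are 3 genes for nuclear regulators that cytokines of the interleukin-6 family switch on early through the transcription factor STAT3. They were chosen by name, as known early STAT3 targets that stand in the authors' table of genes called after leukemia inhibitory factor (LIF) in bovine choroidal endothelial (BCE) cells. They are 3 of the 25889 genes and transcribed units in the deposited count table. RNA was sequenced from BCE cells and from bovine aortic endothelial (BAE) cells, each exposed for 6 h to LIF (10 ng/ml) or to the vehicle, 0.1% BSA in PBS. This gave 4 groups of 2 libraries, which the study's methods describe as biological replicates. Before treatment all cells spent 3 h in an assay medium, whose serum was 10% in the BCE and 1% in the BAE cultures. BCE cells had also been grown with bFGF and VEGF, and BAE cells without them, so cell type, serum and earlier growth factors cannot be told apart in any comparison between the cell types. Both cell types were grown in culture, and in such bulk samples fewer responding cells and less RNA per cell cannot be told apart.

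LIF binds its receptor together with the shared subunit gp130, and the Janus kinases bound to them phosphorylate STAT3. In the liver the same route drives the acute phase response, in which hepatocytes raise the secretion of plasma proteins during inflammation. Endothelial cells also respond to cytokines of this family, and the genes switched on first include further transcriptional regulators. CEBPD encodes C/EBP delta, a basic leucine zipper protein that binds promoters of inflammatory and acute phase genes. BCL3 encodes an atypical member of the IκB family that works in the nucleus, where it joins NF-κB p50 and p52 dimers at promoters. SBNO2, strawberry notch homolog 2, encodes a transcriptional co-regulator known as a STAT3-dependent target of interleukin-10 and interleukin-6 family cytokines in myeloid and glial cells.

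The 8 libraries held from 18600598 to 35269335 counts. Levels are given as CPM, counts relative to the size of the library after TMM scaling. CPM values are not corrected for gene length, so a level of one gene was not compared with a level of another. Every count of the 3 genes lay between 528 and 11282, so that the counting error of a single library was at most 4.35%. RefSeq lists each of them as a protein-coding gene whose span overlaps 0 other genes in its ARS-UCD2.0 assembly, with 1 transcript for CEBPD, 1 for BCL3 and 12 for SBNO2. That assembly differs from the one the reads were aligned to, so it was used only for the gene type, the number of transcripts and these overlaps.

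CEBPD (ENSBTAG00000046307) had 38.6 and 35.2 CPM in the vehicle-treated BAE libraries and 420 and 438 CPM in the LIF-treated BAE libraries. Both LIF-treated libraries lay above both vehicle-treated ones, which by any amount held for 25.5% of the 13646 genes that passed the filter on low counts over all libraries. Each LIF-treated library held between 10.9 and 12.4 times the level of a vehicle-treated one. In BCE cells CEBPD had 84.7 and 88.0 CPM with vehicle and 289 and 309 CPM with LIF, and LIF-treated libraries again lay above vehicle-treated ones, as in 19.7% of all genes. The 4 group levels followed the order vehicle-treated BAE, vehicle-treated BCE, LIF-treated BCE and LIF-treated BAE cells from lowest to highest, without overlap between neighbours. BAE cells therefore held the lowest and the highest level of this gene.

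BCL3 (ENSBTAG00000009493) had 22.0 and 24.2 CPM in the vehicle-treated and 113 and 112 CPM in the LIF-treated BAE libraries. Its levels in BCE cells were 47.3 and 45.7 CPM with vehicle and 105 and 99.3 CPM with LIF. LIF-treated libraries lay above vehicle-treated libraries in both cell types, and the 4 groups stood in the same order as for CEBPD. The topmost step was narrow, since LIF-treated BAE cells held 1.11 times the mean level of LIF-treated BCE cells, or 1.03 times when libraries were scaled by their total counts alone. Under both scalings the libraries of these groups did not overlap.

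SBNO2 (ENSBTAG00000020780) had 60.0 and 67.5 CPM in the vehicle-treated BAE libraries and 266 and 267 CPM in the LIF-treated ones. In BCE cells it had 53.5 and 60.6 CPM with vehicle and 106 and 107 CPM with LIF. The vehicle-treated libraries of both cell types overlapped, whereas LIF-treated BAE libraries stood well above LIF-treated BCE libraries. Without LIF the libraries of the cell types did not overlap for CEBPD and BCL3, whose levels were higher in BCE cells, as in 38.4% of the 13646 genes, while a further 38.6% lay lower in BCE cells without overlap. Such a separation was thus common, and SBNO2 did not show it.

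**Figure D1:**
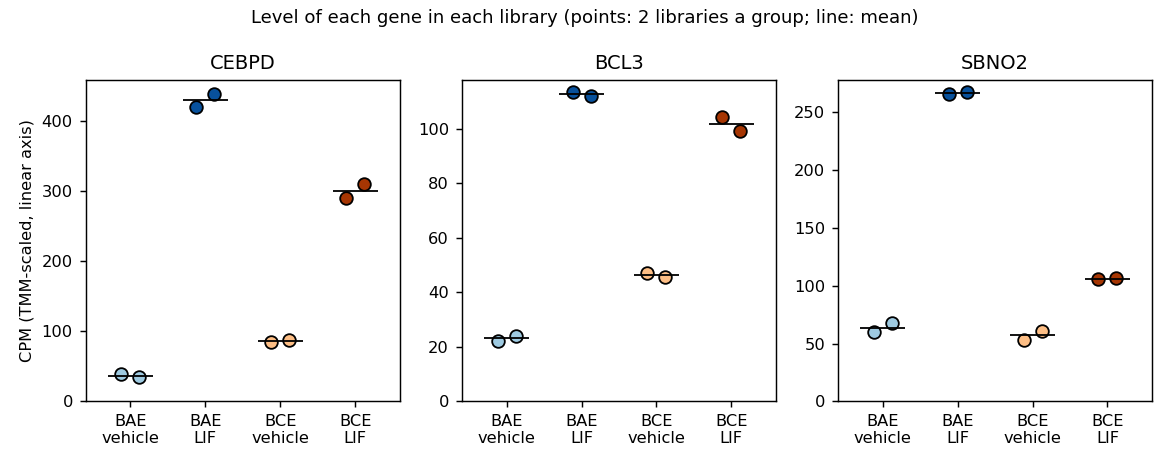
Level of CEBPD, BCL3 and SBNO2 in each of the 8 libraries, in CPM on a linear axis that starts at 0 and differs between panels. Points are single libraries and lines are means of 2 libraries. The LIF-treated BAE libraries are the highest in each panel, and the vehicle-treated BAE libraries are the lowest for CEBPD and BCL3 but overlap the vehicle-treated BCE libraries for SBNO2.

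The LIF effect in BAE cells could be tested, because the BAE libraries had no part in the authors' table from which the 3 genes were taken. The genes were chosen with earlier results of these libraries known, so the p-values are no independent support for the choice. All 3 genes rose. The log2 fold change of CEBPD was 3.57 with a standard error of 0.0531, and the quasi-likelihood test of edgeR gave an adjusted p of 9.01e-17. BCL3 rose by 2.32 on the log2 scale (standard error 0.0623), with an adjusted p of 1.91e-13 in that test. The rise of SBNO2 was 2.10 on the same scale (standard error 0.0527), with an adjusted p of 1.01e-13. Of the 13034 genes tested in BAE cells 1774, or 13.6%, rose past the same threshold of 0.05 on the adjusted p, and without LIF-treated BAE replicate 1 the number called in either direction went from 2889 to 1807. A rise past the threshold was thus common in these cells, and the 3 genes stood out more by size. The median log2 fold change over all genes tested was -0.0039, and 95% of them lay between -0.68 and 0.81. By log2 fold change CEBPD ranked 6, BCL3 19 and SBNO2 25 from the top, and by p-value they ranked 1, 5 and 3. The 3 genes come from genes called in BCE cells, which tended to rise in BAE cells too, so all genes tested are no matched background. Among the 84 genes with a name and a higher level after LIF in BCE cells, CEBPD ranked 1, BCL3 5 and SBNO2 7 by log2 fold change in BAE cells.

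The libraries agreed closely behind these values. The paper names a single commercial source for each cell type and does not say whether the libraries of a group came from different donors or preparations. The standard errors and p-values therefore measure spread between these libraries and may not cover spread between donors. The SD of the 2 vehicle-treated BAE libraries was 6.40% of the mean for CEBPD, 6.59% for BCL3 and 8.32% for SBNO2. In the LIF-treated BAE libraries it was 3.05%, 0.964% and 0.336% of the mean. For BCL3 and SBNO2 this was below the counting error of a single LIF-treated BAE library, at least 1.86% and 1.21%. The SD of 2 libraries thus understates the spread there. Across all pairs of one LIF-treated and one vehicle-treated library, the ratio ran from 4.63 to 5.15 for BCL3 and from 3.94 to 4.45 for SBNO2. The smallest of these ratios for CEBPD, 10.9, was above the largest for BCL3, and the smallest for BCL3 was above the largest for SBNO2. The 3 genes therefore kept the order CEBPD, BCL3, SBNO2 in the size of their rise in BAE cells, whichever libraries were set against each other.

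In BCE cells the LIF effect is given without a test, since this contrast chose the genes. The log2 fold change was 1.79 (standard error 0.0561) for CEBPD, 1.13 (standard error 0.0608) for BCL3 and 0.90 (standard error 0.0687) for SBNO2. The authors' table is made of called genes, and in the fit made here 0.692% of 13014 genes were called higher in BCE cells. This share is unsteady, since the 120 genes called in either direction became 1423 and 477 without vehicle-treated BCE replicates 1 and 2, and 56 and 55 without LIF-treated BCE replicates 1 and 2. The level of CEBPD was 3.28 to 3.65 times higher in a LIF-treated than in a vehicle-treated BCE library. For BCL3 this ratio ran from 2.10 to 2.29, and for SBNO2 from 1.74 to 2.00. The order of the genes was the same as in BAE cells, again without overlap of these ranges. By log2 fold change they ranked 7, 33 and 58 from the top in BCE cells.

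**Figure D2:**
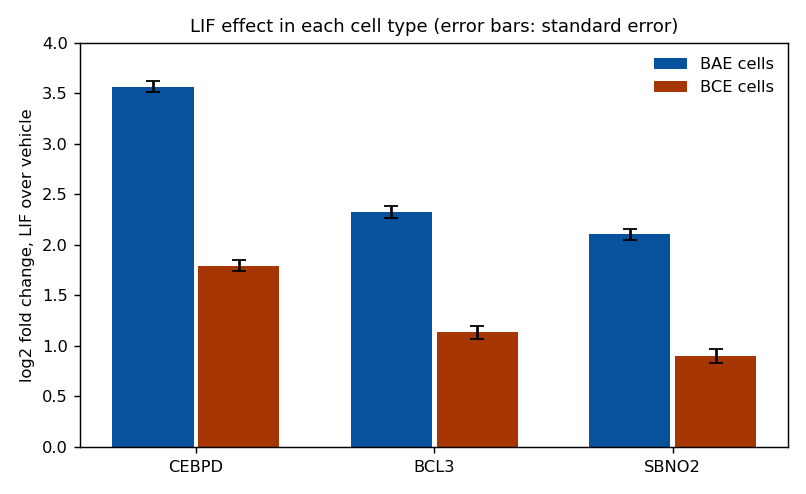
LIF effect on CEBPD, BCL3 and SBNO2 as the log2 fold change of LIF over vehicle in BAE cells and in BCE cells, with bars from 0 and error bars of 1 standard error from the fit on 4 libraries. Each gene has its longer bar in BAE cells (3.57, 2.32 and 2.10) and its shorter bar in BCE cells (1.79, 1.13 and 0.90).

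**Figure D3:**
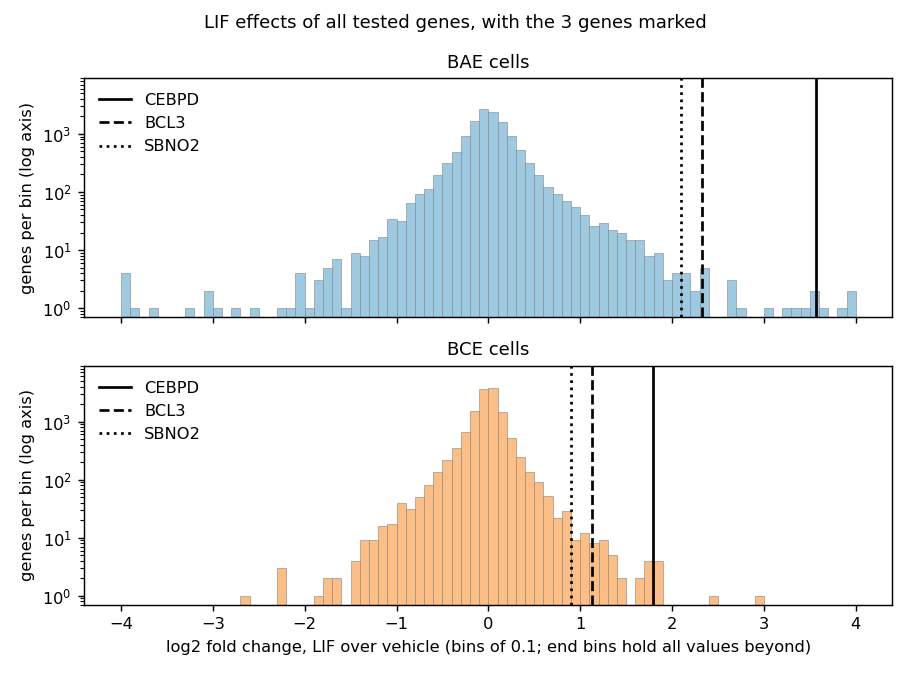
Numbers of genes by log2 fold change of LIF over vehicle, on a logarithmic vertical axis, for all genes tested in BAE cells (upper panel) and BCE cells (lower panel). Vertical lines mark CEBPD, BCL3 and SBNO2, which lie in the thin right tail of each panel, further out in BAE cells.

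The LIF effects of both cell types were then set side by side in one fit of all 8 libraries. As BCE minus BAE, the log2 difference of CEBPD was -1.74 (standard error 0.0796), that of BCL3 -1.16 (standard error 0.0859) and that of SBNO2 -1.17 (standard error 0.0909). These differences contain the BCE contrast that chose the genes, so no p is given for them. Over all genes the same difference passed the threshold toward a larger value in BAE cells in 2.52% of 13646 genes. The 502 genes that passed in either direction ranged from 261 without LIF-treated BAE replicate 1 to 948 without vehicle-treated BCE replicate 1. On the scale of levels, LIF added a mean of 392 CPM to CEBPD in BAE cells and 213 CPM in BCE cells. It added 89.6 and 55.4 CPM to BCL3. For SBNO2 the gain was 203 CPM in BAE cells and 49.1 CPM in BCE cells, the widest gap of the 3 genes in relative terms. Of the 84 genes with a name and a higher level after LIF in BCE cells, as far as the BAE fit held them, the log2 fold change in BAE cells exceeded that in BCE cells by a median of 0.35. In this ordering CEBPD stood 2, SBNO2 8 and BCL3 9 from the top.

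The gaps between the cell types without and with LIF differed from gene to gene. Without LIF, vehicle-treated BCE cells held 2.34 times the CEBPD level and 2.01 times the BCL3 level of vehicle-treated BAE cells. The corresponding log2 fold changes were 1.22 (standard error 0.0728) and 1.01 (standard error 0.0870). For SBNO2 the value was -0.16 (standard error 0.0826), with overlapping libraries. These values share the vehicle-treated BCE libraries with the contrast that chose the genes, and carry no test. With LIF, BAE cells held 1.43 times the CEBPD level and 2.51 times the SBNO2 level of BCE cells. LIF-treated BAE libraries lay above LIF-treated BCE libraries in 40.3% of all genes. The complete order of 4 groups seen for CEBPD and BCL3, with the lowest and the highest level in BAE cells and no overlap, was found in 84 genes, or 0.616% of the 13646. Part of this order, LIF-treated above vehicle-treated BCE cells, belongs to the contrast that chose the genes. The order was also read from the same genes, so the share over all genes is no matched background for it.

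The pattern of each gene over the 8 libraries was compared with that of all other genes, as the root-mean-square difference of log2 CPM after each gene's mean was subtracted. The nearest gene of all to CEBPD was SOCS3, the feedback inhibitor of gp130 and JAK signalling, at 0.45, where the median gene stood at 1.45. BCL3 ranked 3 at 0.51, and AHR, the aryl hydrocarbon receptor, ranked 7 at 0.60. The genes nearest to BCL3 with a name were AHR at 0.15, MTUS1 at 0.26 and MT2, a metallothionein, at 0.38. SBNO2 had MARCHF3, a membrane-bound ubiquitin ligase, as its nearest gene at 0.22. The repressor BCL6 followed at 0.24 and IRF2BPL at 0.32. CEBPD and BCL3 differed less from each other than either did from SBNO2, with 0.82 between CEBPD and SBNO2 and 0.60 between BCL3 and SBNO2. Only the 111 genes with a name could be named here, and all of these stand in the authors' table for BCE cells. The likeness is a description over 8 libraries that fall into 4 groups.

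**Figure D4:**
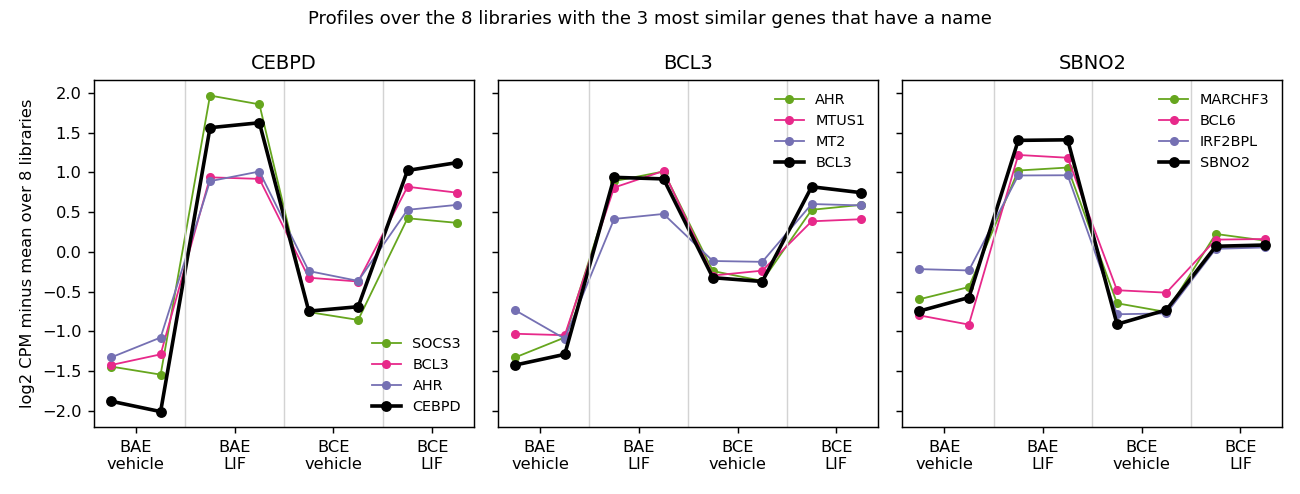
Log2 CPM minus the gene's own mean over the 8 libraries for CEBPD, BCL3 and SBNO2 (black) and, in colour, for the 3 genes with a name nearest to each. Each point is 1 library, with 2 libraries in each group. SBNO2 and its neighbours have their highest values in LIF-treated BAE cells and lower values in LIF-treated BCE cells, whereas CEBPD and BCL3 are high in both LIF-treated groups and lowest in vehicle-treated BAE cells.

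Other genes of the same pathways were followed as far as the files pair a name with an identifier. Of 26 genes of the LIF receptor and JAK-STAT route 5 had one, of 30 early STAT3 targets 12 and of 32 acute phase proteins 2, which made 15 different genes. The 15 are in the authors' table for BCE cells, so their own tests come from BAE cells only. There 14 rose and 1 fell, where 13.6% of all genes rose and 8.55% fell, and their median log2 fold change was 1.20. The 15 have a name here only because they were listed as called in BCE cells. Named genes higher in BCE cells tended to rise in BAE cells too. The share over all genes is therefore no matched background, and these counts are no result about the pathway lists. SOCS3 rose by 3.44 on the log2 scale (standard error 0.0875), with an adjusted p of 1.01e-13 in edgeR's test. GADD45G, a growth arrest gene, rose by a less certain 2.38 (standard error 0.398), BCL6 by 2.09, the adhesion molecule ICAM1 by 1.47 and OSMR, the oncostatin M receptor, by 1.20. STAT3 itself rose by 0.99. SOCS2, another inhibitor of cytokine signalling, fell by 0.75 on the log2 scale. SOCS3 and GADD45G were the 2 genes of the 15 with a larger log2 fold change than SBNO2, and CEBPD exceeded all 15.

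The 2 acute phase genes with an identifier moved less than the 3 regulators. MT2, matched to the list's MT2A, rose by 1.38 (standard error 0.0797) on the log2 scale in BAE cells, and metallothionein reads may be shared between near-identical copies. SOD2, the mitochondrial superoxide dismutase, rose by 0.36 in BAE cells (standard error 0.0924). Its adjusted p was 0.0104 in edgeR's test and 0.0547 in DESeq2's. In BCE cells the log2 fold changes were 0.71 for MT2 and 0.74 for SOD2. LIFR and IL6ST, which encode the receptor subunits of LIF, had no identifier paired with their name here. The other 6 genes of the C/EBP family, the other 10 of the NF-κB and IκB family and SBNO1 likewise were not analysed. The same held for all 41 genes of 6 marker lists, so the endothelial identity of the libraries and RNA from other cell types were not checked.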

How the data were processed

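Read pairs were mapped by the authors with TopHat (version 2.0.12, Bowtie version 2.2.3) against a UMD assembly of Bos taurus and assigned to genes with HTSeq (version 0.6.1). The deposited values are raw counts, 1 column per library. Use of strand and of reads mapping to several genes is not given in the sources used here, so overlapping or near-identical genes are uncertain. The deposited table of the authors' own BCE comparison (fold changes, p-values, group means) served only to pair identifiers with names, together with a supplementary gene list. The table under the BAE comparison's name is identical to it and was not used.

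The quasi-likelihood test of edgeR (version 4.0.16, in R version 4.3.3) was run on genes kept by filterByExpr at a minimum of 10 counts and 15 in total, with TMM scaling and Benjamini-Hochberg adjustment over all genes (threshold 0.05). Each comparison used its own 4 libraries, the difference of LIF effects all 8. Standard errors come from the log2 fold change and F statistic. Log2 CPM used a prior count of 2. The tests were tried on simulated counts. Alternatives were DESeq2 (version 1.42.0) size factors or test, other filters, a replicate block, 1 fit of 8 libraries, and leaving out each library. Genes named were the 3 members, up to 4 genes with the largest called changes of each pathway list plus STAT3 and SOCS3, and the 3 named genes nearest in profile. The members and lists were chosen with earlier results of these data known.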

Additional observations from a re-analysis of the deposited data

How the results depend on the processing

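In BAE cells the log2 fold changes of CEBPD, BCL3 and SBNO2 kept their direction and their side of the threshold under each of 6 alternatives and with each library left out. The alternatives gave 3.53 to 3.57, 2.29 to 2.32 and 2.07 to 2.10, and leaving out a library gave 3.51 to 3.63, 2.25 to 2.39 and 2.01 to 2.18. Among the 6 alternatives the adjusted p of BCL3 ran from 2.89e-251 without a filter to 2.15e-12 with DESeq2 size factors, both in edgeR's test. The size of the adjusted p thus depended on the settings far more than the fold changes did. A library left out leaves its arm with a lone library, which is assumed to vary like the others. Among the untested values, without 1 library SBNO2 in BCE cells lay between 0.81 and 0.99, and between the vehicle-treated groups from -0.26 to -0.08. With 2 libraries in a group, such a shift follows from the gap between them.

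Counts over all genes moved more. With DESeq2's test 1922 genes changed in BAE cells. Without a filter on low counts 437 genes passed in BCE cells and 889 in the difference of LIF effects. The replicate block gave 226 genes in BCE cells and one fit of 8 libraries 217, against 120. The block used the replicate numbers of the sample titles, which differ from the numbers in the deposited column names. Same-numbered libraries deviated from their group means with a correlation of -0.02 in BAE and 0.10 in BCE cells, so the numbers were not taken as pairs, and under the block CEBPD, BCL3 and SBNO2 rose by 3.57, 2.32 and 2.10 on the log2 scale in BAE cells. With 1 library left out the count ran from 1807 to 2905 in BAE cells and from 55 to 1423 in BCE cells, where it was 1423 and 477 without vehicle-treated replicates 1 and 2 and 56 and 55 without LIF-treated replicates 1 and 2. The difference count ran from 261 to 948, the highest without vehicle-treated BCE replicate 1, and was 281, 261, 293, 292 and 272 without vehicle-treated BAE replicate 1, LIF-treated BAE replicates 1 and 2 and LIF-treated BCE replicates 1 and 2. Of the 2 acute phase genes 1 rose in BAE cells with DESeq2's test and 1 in the fit of 8 libraries, where SOD2 missed the threshold (adjusted p 0.0547 and 0.0514), and 1 to 2 with a library left out. JAK-STAT genes lower in BCE cells (1, SOCS2) then numbered 0 to 1. GADD45G had no adjusted p in DESeq2's test. The cause of these shifts was not tested.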

Other observations

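Of all genes tested in BAE cells 5 had a larger log2 fold change after LIF than CEBPD, from 3.58 to 6.76, and all 5 passed the threshold. The files pair 0 of them with a name. They rested on few counts, at most 69 in a vehicle-treated and 540 in a LIF-treated BAE library. The largest rise was that of ENSBTAG00000047370, with at most 1 count in a vehicle-treated library and 32 and 82 counts in the LIF-treated libraries. Its fitted value is therefore uncertain, with a standard error of 0.730. In BCE cells 6 genes stood above CEBPD, of which CH25H, cholesterol 25-hydroxylase, has a name. Its log2 fold change was 2.46, with a standard error of 0.154.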
